A study of Homo sapiens with 8 samples.

Results

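The extracellular matrix genes described here are the collagens, the laminins, the lysyl oxidases and a set of matrix glycoproteins and proteoglycans, measured in BCPAP cells after knockdown of *EPB41L4A*. They were chosen by gene symbol alone, as the collagen alpha chains, the laminin alpha, beta and gamma chains, *LOX* and its LOXL relatives, and *FN1*, *FBN1*, *FBN2*, *FBLN1*, *FBLN2*, *FBLN5*, *POSTN*, *TNC*, *SPARC*, *THBS1*, *THBS2*, *VCAN*, *BGN*, *DCN* and *LUM*. A gene was represented by 1 probe set, the one with the highest mean over the 8 arrays, which gave 68 genes of the 33616 that the array names by a single symbol. Other genes of the same families were not analysed here, among them *COL3A1*, *COL7A1*, *LAMA5*, *LAMB3* and *LOXL2*, which share a probe set with another symbol.

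BCPAP is a human cell line from a papillary thyroid carcinoma. Knockdown cells received an siRNA pool against *EPB41L4A* (si*EPB41L4A*), a gene for a membrane-associated FERM domain protein, and the control cells received a non-targeting siRNA pool (si*NS*). Both groups were transfected with Lipofectamine RNAiMAX (7.5 ul; the labels give an siRNA amount of 40 uM) and harvested after 72 h, with 4 Clariom D arrays per group from experiments that the submitters describe as biological replicates done at different times. Each group rests on 1 siRNA pool in 1 cell line, and the treatment field of the labels names an siRNA to *LRRC34* where the titles, source names and design name *EPB41L4A*. The labels thus give both groups the same reagent, siRNA amount and time, and different siRNA pools. No source used here says whether the groups were transfected or hybridised together, and their sample numbers form separate blocks. A difference in handling between the groups could not be told apart from the siRNA.

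Collagens are triple helices of alpha chains that are hydroxylated and folded in the endoplasmic reticulum, trimmed outside the cell and then cross-linked by lysyl oxidases. Laminins are trimers of 1 alpha, 1 beta and 1 gamma chain that polymerise on the cell surface and, with collagen IV, form the basement membrane on which thyroid follicular cells rest. Fibronectin, tenascin-C, periostin, SPARC and the thrombospondins bind this network and cell receptors, and several of them are known for their deposition in wounds and tumour stroma.

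The targeted gene was checked first. *EPB41L4A* had values of 5.55, 5.94, 6.72 and 7.09 in si*EPB41L4A* cells and 9.65, 9.22, 9.81 and 9.44 in si*NS* cells, on the deposited log2 scale on which all levels below are given. Its level was lower in every si*EPB41L4A* array, with a log2 change of -3.20 (SE 0.32, limma, adjusted p = 0.000491). It was above background, as defined next, on 2 of 4 si*EPB41L4A* arrays. With lower values set to the background percentile its mean fell by 3.07, a bound that leaves out the spread of the arrays. Array medians were 3.72 to 3.84, and a level was called above background where it exceeded the 95th percentile of that array's 612 negative control probe sets, which lay between 5.97 and 6.43. Of the thyroid markers, *PAX8*, *NKX2-1* and *FOXE1* were above background on all 8 arrays, whereas *TG*, *TSHR* and *SLC5A5* were on none. Markers of fibroblasts and pericytes summed to a log2 level of 8.58 to 9.23 in si*EPB41L4A* cells and 8.75 to 9.10 in si*NS* cells, with *THY1* above background on all 8 arrays and 5 of the 7 genes on none, and none of the 4 endothelial markers was above background on any array. Of the 4 leukocyte markers only *CD68* was above background, and their summed log2 level was 10.55 to 12.89 in si*EPB41L4A* cells and 11.80 to 14.20 in si*NS* cells.

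Of the epithelial markers 5 were tested, of which 2 were lower and 0 were higher. Their summed log2 level was 15.07 to 16.04 in si*EPB41L4A* cells and 16.25 to 16.87 in si*NS* cells, without overlap, and of 6 markers 3 were above background on all 8 arrays and *CDH1*, the E-cadherin gene that defines epithelia, on none. The sum adds unlogged levels, so the markers with the highest values weigh most in it. *EPCAM*, above background on 1 of 4 si*EPB41L4A* arrays, had a log2 change of -2.43 (limma, adjusted p = 0.00683). With values under the background percentile set to it, the mean of *EPCAM* fell by 2.11, again a bound without the spread of the arrays. *KRT7* fell by 1.42 (adjusted p = 0.00645). *KRT8* differed by -1.02 (adjusted p = 0.109), *KRT18* by -0.55 (adjusted p = 0.566) and *KRT19* by 0.15 (adjusted p = 0.824), and these did not pass. The part of these markers in the changes of the matrix genes was not tested.

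Knockdown went with higher levels of 3 laminin chains, of the matricellular proteins periostin and tenascin-C and of lysyl oxidase, and with a lower level of 1 collagen V chain. Among the 68 genes, 45 passed the filter on low values and were tested, of which 6 were higher (*LAMC1*, *POSTN*, *LAMA4*, *LOX*, *TNC* and *LAMB1*), 1 was lower (*COL5A1*) and 38 did not pass an adjusted p of 0.05 (limma with Benjamini-Hochberg adjustment over 66831 probe sets). Over all tested probe sets 2.61% passed, 1.23% higher and 1.38% lower, and over the 22468 tested genes with 1 symbol 5.51% passed, against 15.6% of the matrix genes tested. At an unadjusted p under 0.05 there were 11 matrix genes of 45, 9 higher and 2 lower. Over the 22468 tested genes with 1 symbol there were 2140 higher and 2846 lower, a similar share, and over all probe sets the figure was 13.9%. The 4 si*EPB41L4A* arrays did not overlap the 4 si*NS* arrays for 10 of the 45, and for 8.61% of all probe sets. The share over genes with 1 symbol was not computed for this count, so the 2 figures are not of like units. The median log2 change of the 45 was 0.03, beside -0.05 over all tested probe sets.

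**Figure D1:**
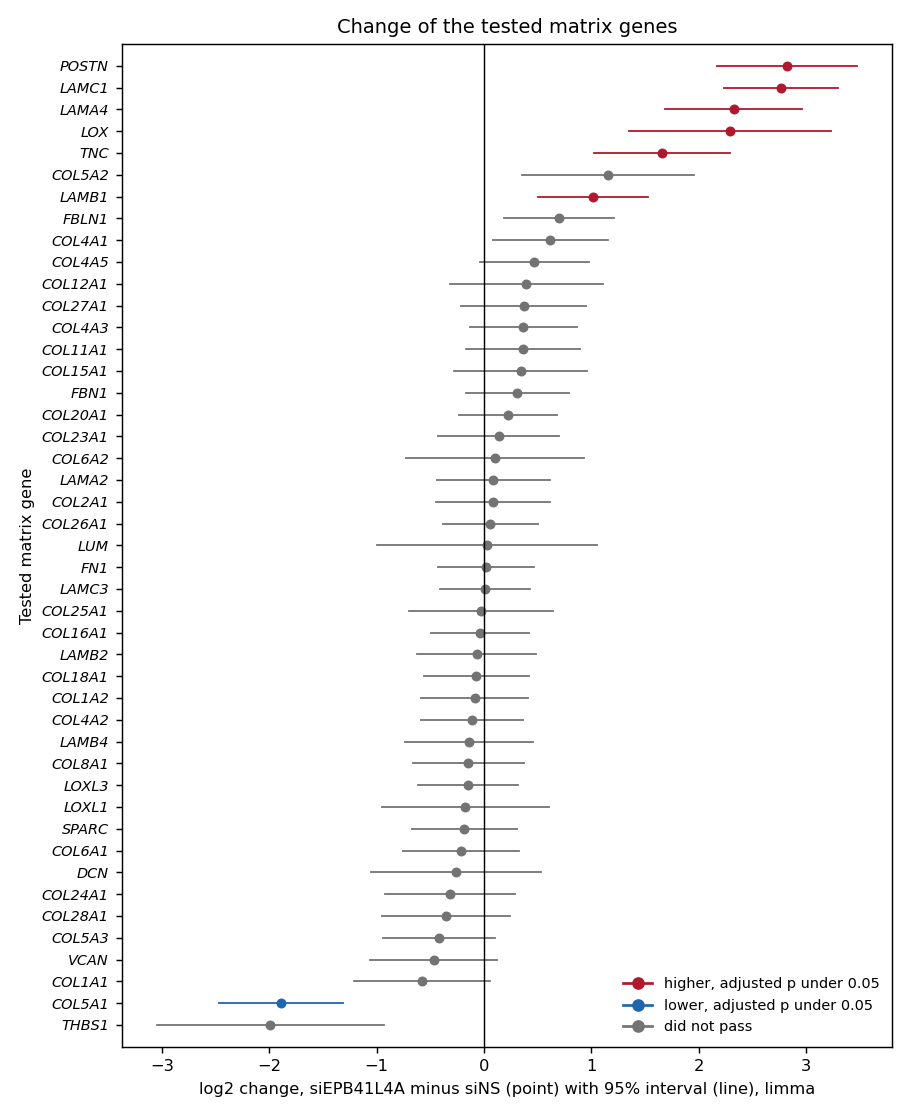
Log2 change (si*EPB41L4A* minus si*NS*, horizontal axis, with 95% confidence interval) of the 45 matrix genes tested, ordered by change. The 6 genes that passed as higher lie between 1.01 and 2.83 and *COL5A1*, the 1 that passed as lower, at -1.89, while most others have intervals that include 0.

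Of the 68 genes, 21 were above background on all 8 arrays, 4 on some arrays and 43 on none. The 43 had means between 2.41 and 5.44, and 20 of them passed the filter, with log2 changes of -0.42 to 0.47 of which 0 passed the test. At that level neither a low expression nor its change can be told from the control probes. Values of different probe sets depend on their probes, so the level of 1 gene is not ranked against that of another. Arrays cannot tell less RNA per cell from fewer cells that express a gene.

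Laminins held 3 of the 6 genes that were higher. Of 8 laminin genes 7 were tested and 3 were higher, 0 were lower, and their median log2 change was 0.09. *LAMC1* encodes the gamma 1 chain, which is part of most laminin trimers. Its level was 15.09, 14.60, 14.87 and 14.77 in si*EPB41L4A* cells, against 12.49, 11.91, 12.29 and 11.57 in si*NS* cells. All si*EPB41L4A* arrays were more than the whole si*NS* spread above the highest si*NS* array. The mean was 14.83 ± 0.20 in si*EPB41L4A* cells and 12.07 ± 0.41 in si*NS* cells (SD, n = 4 each), a log2 change of 2.76 (SE 0.24, limma, adjusted p = 0.000286), or 6.79-fold.

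*LAMA4* encodes the alpha 4 chain, found in the basement membranes of vessels, muscle and other mesenchymal tissues. It measured 9.31, 10.34, 10.48 and 10.80 in si*EPB41L4A* cells, against 7.93, 8.01, 7.96 and 7.73 in si*NS* cells, a narrow control group below every knockdown array. The log2 change was 2.33 (SE 0.29, limma, adjusted p = 0.00176). *LAMB1*, the beta 1 chain, measured 13.50, 13.21, 13.90 and 13.70 in si*EPB41L4A* cells, against 12.21, 12.67, 12.90 and 12.47 in si*NS* cells. These groups did not overlap but lay close, with a log2 change of 1.01 (SE 0.24, limma, adjusted p = 0.0427), and leaving out any 1 of the 8 arrays ended the call (adjusted p = 0.0512 to 0.122). *LAMA4*, *LAMB1* and *LAMC1* encode chains that can assemble into 1 trimer. The other tested chains, *LAMA2*, *LAMB2*, *LAMB4* and *LAMC3*, were above background on no array, with log2 changes of 0.09, -0.07, -0.14 and 0.01.

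The 150 bases upstream of the annotated start of the genes that passed the test are shown, since these are the genes whose RNA changed and the windows can be read for shared short motifs. The sequences are RefSeq's, of build GRCh38.p14, and run from 5′ to 3′ on the gene's strand. A total of 6 short motifs was searched on both strands, and matches are in capitals. They were the TATA box (TATAAA), the GC box (GGGCGG), the CCAAT box, the AP-1 element (TGANTCA), the SMAD element (CAGAC) and the TEAD element (GGAATG). Of 27305 promoters of the same length, 7.14% held a TATA box, 36.6% a GC box, 24.4% a CCAAT box, 4.13% an AP-1 element, 23.5% a SMAD element and 7.14% a TEAD element. For the 3 laminin chains the windows were chr1:183023270-183023419 on the plus strand for *LAMC1*, and on the minus strand chr6:112254568-112254717 for *LAMA4* and chr7:108003162-108003311 for *LAMB1*.
LAMC1: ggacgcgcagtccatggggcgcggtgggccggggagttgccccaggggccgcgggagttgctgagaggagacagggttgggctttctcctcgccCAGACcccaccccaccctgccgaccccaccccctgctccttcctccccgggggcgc
LAMA4: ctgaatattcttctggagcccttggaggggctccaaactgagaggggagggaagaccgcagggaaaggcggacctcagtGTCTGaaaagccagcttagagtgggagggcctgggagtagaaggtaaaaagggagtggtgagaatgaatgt
LAMB1: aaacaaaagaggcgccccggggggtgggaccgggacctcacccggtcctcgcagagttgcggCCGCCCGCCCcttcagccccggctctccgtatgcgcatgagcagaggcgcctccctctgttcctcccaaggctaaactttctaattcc
*LAMC1* and *LAMA4* each held 1 SMAD element, read on opposite strands, and *LAMB1* held 2 overlapping GC boxes on the reverse strand. A match is a description of the letters and not a binding site.

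**Figure D2:**
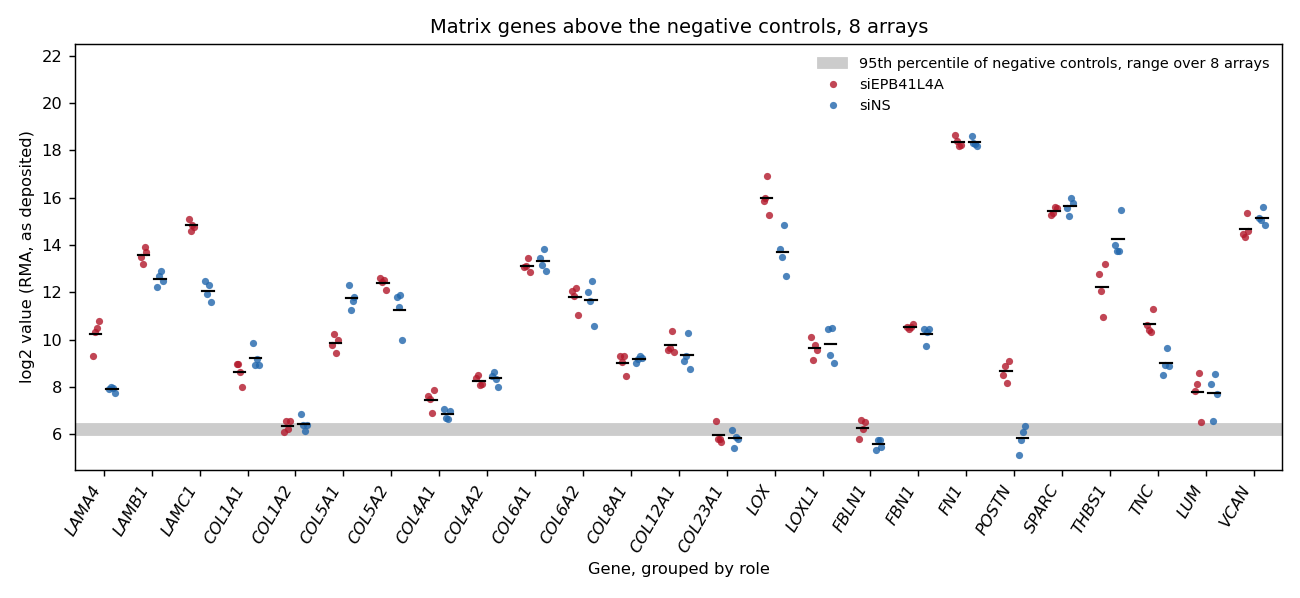
Deposited log2 level (vertical axis) of the 25 matrix genes above background on at least 1 array, on each array, with si*EPB41L4A* arrays left of si*NS* arrays a bar at each group mean and a grey band for the background percentile over the 8 arrays. The groups stand apart for *LAMC1*, *LAMA4*, *POSTN*, *LOX*, *TNC* and *COL5A1* and lie over each other for *FN1* and *SPARC*. Heights of different genes are not comparable.

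Periostin and tenascin-C rose among the matricellular genes. Of the 6 genes for fibronectin and matricellular proteins 5 were tested, 2 were higher and 0 were lower. *POSTN* encodes periostin, which binds collagen I, fibronectin and tenascin-C. Its level was 8.50, 8.88, 8.16 and 9.08 in si*EPB41L4A* cells, against 5.11, 5.76, 6.11 and 6.34 in si*NS* cells. It was above background on 4 of 4 si*EPB41L4A* arrays and 1 of 4 si*NS* arrays, so the control level is close to that of the control probes. The log2 change was 2.83 (SE 0.30, limma, adjusted p = 0.000565). With values under the background percentile set to it the change of the means was 2.39, a bound that leaves out the spread of the arrays.

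*TNC* encodes tenascin-C, a hexameric glycoprotein of developing and injured tissue. It measured 10.60, 10.41, 10.32 and 11.29 in si*EPB41L4A* cells, against 8.52, 8.92, 9.64 and 8.90 in si*NS* cells. The groups did not overlap, and the log2 change was 1.66 (SE 0.29, limma, adjusted p = 0.0108). *THBS1*, thrombospondin 1, an adhesive glycoprotein that inhibits angiogenesis, had values of 12.79, 12.05, 10.96 and 13.18 in si*EPB41L4A* cells, against 13.99, 13.74, 13.75 and 15.46 in si*NS* cells. Every si*EPB41L4A* array was below every si*NS* array, yet the spread in both groups was wide (SD 0.98 in si*EPB41L4A* cells and 0.82 in si*NS* cells). Its log2 change of -1.99 (SE 0.49, 95% CI -3.05 to -0.94, limma, adjusted p = 0.0526) did not pass. Leaving out si*EPB41L4A* replicate 4 gave an adjusted p of 0.0352, and leaving out si*NS* replicate 4 gave a change of -1.58 and an adjusted p of 0.102.

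*FN1*, the fibronectin gene, measured 18.63, 18.39, 18.21 and 18.24 in si*EPB41L4A* cells, against 18.59, 18.33, 18.28 and 18.18 in si*NS* cells. The groups overlapped, with a log2 change of 0.02 (SE 0.21, 95% CI -0.43 to 0.47), whose sign turned when single arrays were left out. These values lie near the top of the scale, where array maxima were 19.79 to 19.92, and a change there may be compressed. *SPARC*, a collagen-binding glycoprotein, measured 15.29, 15.34, 15.62 and 15.55 in si*EPB41L4A* cells, against 15.56, 15.21, 15.99 and 15.77 in si*NS* cells. Its groups overlapped as well, with a log2 change of -0.18 (95% CI -0.67 to 0.31).

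Of the 4 lysyl oxidase genes 3 were tested and 1 was higher. *LOX* oxidises lysines of collagen and elastin, the first step of cross-linking. Its level was 15.84, 15.97, 16.91 and 15.28 in si*EPB41L4A* cells, against 13.85, 13.48, 14.83 and 12.69 in si*NS* cells. In both groups replicate 3 was the highest and replicate 4 the lowest, and the groups did not overlap. The mean was 16.00 ± 0.67 in si*EPB41L4A* cells and 13.71 ± 0.89 in si*NS* cells (SD, n = 4 each), a log2 change of 2.29 (SE 0.43, limma, adjusted p = 0.0158), or 4.88-fold. With si*EPB41L4A* replicate 2 left out the adjusted p was 0.0524 and with si*NS* replicate 2 left out 0.0533, so neither of these fits kept the call. *LOXL1*, a relative linked to elastic fibres, had a log2 change of -0.18 (95% CI -0.95 to 0.60) and *LOXL3*, above background on no array, one of -0.15.

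The windows upstream of *POSTN* (chr13:37598769-37598918), *TNC* (chr9:115118158-115118307) and *LOX* (chr5:122078260-122078409), all on the minus strand, are shown for comparison with the laminin chains. RefSeq's table holds 3 starts for *LOX*, of which the most upstream was used.
POSTN: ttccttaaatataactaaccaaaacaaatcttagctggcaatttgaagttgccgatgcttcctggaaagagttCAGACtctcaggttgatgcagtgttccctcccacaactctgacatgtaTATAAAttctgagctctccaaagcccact
TNC: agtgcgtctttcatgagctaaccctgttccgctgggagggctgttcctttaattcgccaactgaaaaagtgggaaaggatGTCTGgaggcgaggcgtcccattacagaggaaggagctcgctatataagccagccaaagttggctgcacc
LOX: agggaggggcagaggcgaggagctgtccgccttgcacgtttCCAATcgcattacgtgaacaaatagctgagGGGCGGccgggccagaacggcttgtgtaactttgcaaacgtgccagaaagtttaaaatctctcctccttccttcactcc
*POSTN* held a TATA box and a SMAD element, *TNC* a SMAD element on the reverse strand, and *LOX* a GC box and a CCAAT box. Only the exact letters were counted. The stretch tatataag near the start of *TNC* is close to TATAAA but was not a match, so *TNC* is not shown to lack a TATA box. Together with the laminins the SMAD element was present in 4 of the 7 windows of genes that passed, beside 23.5% of all promoters. The AP-1 and TEAD elements were in 0, beside 4.13% and 7.14% of all promoters. The motifs were chosen after the values were seen, and these counts in few windows were not tested.

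Among the collagens a single gene passed. There were 41 collagen genes, of which 25 were tested, 0 were higher and 1 was lower, with a median log2 change of 0.06. The share of tested collagens that passed was not above the 5.51% over all tested genes with 1 symbol. The 1 gene was *COL5A1*, an alpha chain of collagen V, which co-assembles with collagen I and limits the width of its fibrils. Its level was 9.78, 10.25, 9.44 and 9.98 in si*EPB41L4A* cells, against 12.29, 11.26, 11.63 and 11.83 in si*NS* cells. All si*EPB41L4A* arrays were below all si*NS* arrays, and the log2 change was -1.89 (SE 0.27, limma, adjusted p = 0.00321), a 3.7-fold lower level. The partner chain *COL5A2* measured 12.60, 12.45, 12.52 and 12.10 in si*EPB41L4A* cells, against 11.80, 11.38, 11.89 and 9.99 in si*NS* cells. It lay in the opposite direction with groups that did not overlap, at a log2 change of 1.15 (SE 0.37, 95% CI 0.35 to 1.95, limma, adjusted p = 0.145), which did not pass, and at 0.73 without si*NS* replicate 4, the lowest array.

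The window upstream of *COL5A1* (chr9:134641653-134641802, plus strand) is shown because it belongs to the 1 gene that fell. It held 0 of the motifs searched, and 70% of its bases were G or C.
COL5A1: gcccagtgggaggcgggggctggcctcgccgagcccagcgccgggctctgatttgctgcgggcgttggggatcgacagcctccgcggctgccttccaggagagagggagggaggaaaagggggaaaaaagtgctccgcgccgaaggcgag

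The chains of collagen I, the main fibril of connective tissue, did not pass. *COL1A1* measured 8.97, 8.98, 8.62 and 7.98 in si*EPB41L4A* cells, against 9.84, 8.92, 9.20 and 8.91 in si*NS* cells. These groups overlapped, with a log2 change of -0.58 (95% CI -1.21 to 0.05, limma, adjusted p = 0.410). The annotation gives this probe set a symbol without a gene identifier, and the probe set that carries the identifier had means of 5.66 ± 0.32 in si*EPB41L4A* cells and 5.73 ± 0.70 in si*NS* cells (SD, n = 4 each), with a change of -0.06. *COL1A2* measured 6.08, 6.58, 6.21 and 6.56 in si*EPB41L4A* cells, against 6.84, 6.40, 6.13 and 6.40 in si*NS* cells, and was above background on 4 of 4 si*EPB41L4A* arrays and 3 of 4 si*NS* arrays.

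Collagen IV, the network collagen of basement membranes, did not pass. Of its 6 genes 4 were tested, and only *COL4A1* and *COL4A2* were above background. *COL4A3*, whose probe set carries no gene identifier, and *COL4A5* were above background on 0 arrays, so the median log2 change of the 4, 0.42, lies between genes at the level of the control probes. *COL4A1* measured 7.61, 7.47, 6.91 and 7.87 in si*EPB41L4A* cells, against 7.09, 6.69, 6.63 and 6.98 in si*NS* cells. *COL4A2* measured 8.37, 8.49, 8.08 and 8.12 in si*EPB41L4A* cells, against 8.48, 8.65, 8.36 and 8.01 in si*NS* cells. The log2 changes were 0.62 (95% CI 0.08 to 1.15, limma, adjusted p = 0.266) for *COL4A1* and -0.11 (95% CI -0.59 to 0.36) for *COL4A2*. These genes lie head to head and share a promoter, so the stretch between their starts, chr13:110307158-110307283, is shown on the plus strand. It is 126 bases long with 80.2% G or C, and holds 1 CCAAT box and 1 GC box.
COL4A1-COL4A2: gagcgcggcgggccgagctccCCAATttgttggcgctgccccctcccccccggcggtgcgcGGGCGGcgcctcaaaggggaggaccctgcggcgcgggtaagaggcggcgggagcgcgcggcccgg

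Collagen VI forms beaded filaments around cells. *COL6A1* and *COL6A2*, its tested chains, were above background on all 8 arrays and had log2 changes of -0.21 (95% CI -0.75 to 0.33) and 0.10 (95% CI -0.73 to 0.93). *COL12A1*, a collagen on the surface of fibrils, and *COL8A1*, a short-chain collagen, were also above background throughout, with changes of 0.39 and -0.14. In these genes, chosen as further examples, the groups overlapped.

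The fibrillin, fibulin and proteoglycan genes of the chosen set did not pass, with 2 fibrillin and fibulin genes and 3 proteoglycan genes tested. *FBLN1*, fibulin 1, an elastic fibre and basement membrane glycoprotein, measured 5.79, 6.59, 6.22 and 6.53 in si*EPB41L4A* cells, against 5.33, 5.76, 5.76 and 5.48 in si*NS* cells. Its groups were close but did not overlap, at a log2 change of 0.70 (SE 0.24, limma, adjusted p = 0.173), and it was above background on 3 si*EPB41L4A* arrays and 0 si*NS* arrays. *FBN1*, the fibrillin of microfibrils, had a change of 0.31 (95% CI -0.17 to 0.79). *VCAN*, versican, a large hyaluronan-binding proteoglycan, had a mean of 14.70 ± 0.46 in si*EPB41L4A* cells and 15.16 ± 0.33 in si*NS* cells (SD, n = 4 each), a change of -0.47 (95% CI -1.06 to 0.12). *LUM*, a small proteoglycan that binds collagen fibrils, had a change of 0.03 with a wide interval (95% CI -1.0 to 1.05).

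Chains that assemble into the same protein were compared within each array, as the difference of their log2 values, which asks whether both chains moved alike. For 7 such pairs an exact two-sided permutation test over the 8 arrays was used, adjusted over the 7 pairs. The smallest p that 4 arrays against 4 allow is 0.0286. The pairs were not among the planned tests, and the laminin pairs were formed from chains that had passed, as was *COL5A1* of the collagen V pair. Their p-values are therefore not independent of those calls. *COL5A1* minus *COL5A2* averaged -2.55 ± 0.47 in si*EPB41L4A* cells and 0.49 ± 0.96 in si*NS* cells (SD, n = 4 each), a difference of -3.04 (exact permutation p = 0.0286, adjusted p = 0.0667). *LAMC1* minus *LAMB1* averaged 1.26 ± 0.29 in si*EPB41L4A* cells and -0.49 ± 0.53 in si*NS* cells, a difference of 1.75 (SE 0.30), and *LAMA4* minus *LAMB1* differed by 1.31 (SE 0.34), both with the same exact permutation p of 0.0286 and adjusted p of 0.0667. In these 3 pairs every si*EPB41L4A* array lay on 1 side of every si*NS* array. With 3 of 7 pairs at the smallest p the adjusted value cannot fall below 0.0667, so the design did not allow them to pass 0.05. The mean of such a difference depends on both probe sets, and only its change between groups is read. *COL4A1* minus *COL4A2* differed by 0.73 (SE 0.28, exact permutation p = 0.0571, adjusted p = 0.10). *LAMC1* minus *LAMA4* differed by 0.44 (SE 0.44), *COL1A1* minus *COL1A2* by -0.49 (SE 0.34) and *COL6A1* minus *COL6A2* by -0.31 (SE 0.28), with exact permutation p of 0.429, 0.143 and 0.343.

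**Figure D3:**
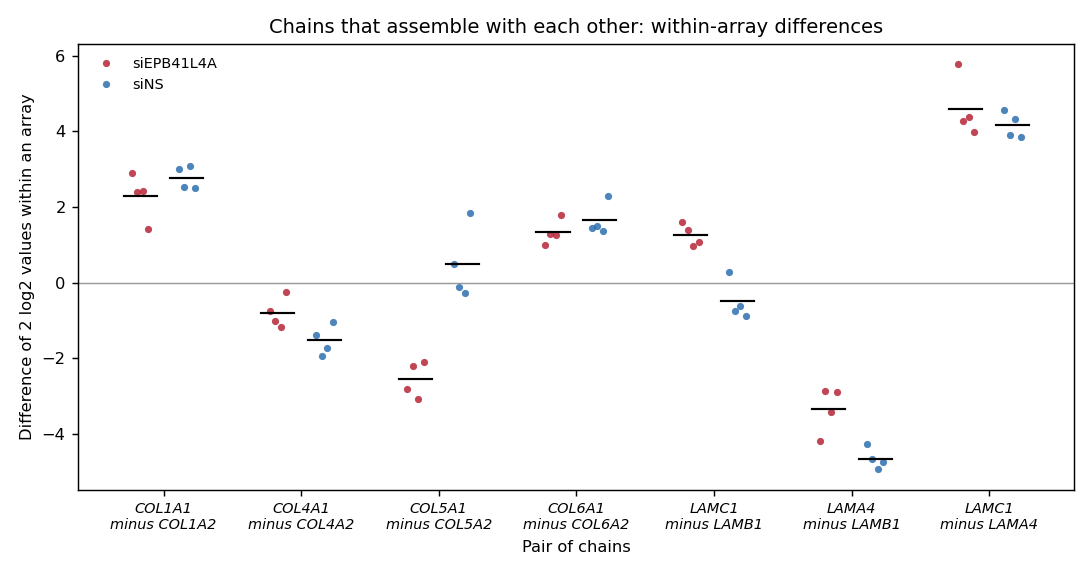
Difference of log2 levels between 2 chains of 1 protein on each array (vertical axis), with si*EPB41L4A* arrays left of si*NS* arrays for each of 7 pairs, and a bar at the group mean. *COL5A1* minus *COL5A2*, *LAMC1* minus *LAMB1* and *LAMA4* minus *LAMB1* do not overlap between groups, and *COL6A1* minus *COL6A2* does.

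Genes that modify and secrete collagen changed in both directions. Of 28 genes measured 25 were tested, 3 were higher and 3 were lower, with a median log2 change of 0.05. The rises were in 3 of the 4 prolyl 3-hydroxylase family genes: *P3H1*, the enzyme mutated in a form of brittle bone disease, at 1.21 (SE 0.25, limma, adjusted p = 0.0229), *P3H2* at 1.08 (adjusted p = 0.0251) and *P3H4*, a non-enzymatic member that acts with lysyl hydroxylase, at 1.59 (adjusted p = 0.0181). The other member, *P3H3*, was at -0.24 (adjusted p = 0.787) with groups that overlapped. The genes that fell were *PLOD1*, a collagen lysyl hydroxylase, at -1.15 (SE 0.21, limma, adjusted p = 0.0120), *PPIB*, the cyclophilin of the collagen-folding complex, at -0.91 (adjusted p = 0.0462), and *BMP1*, the protease that trims procollagens and activates prolysyl oxidase, at -1.71 (adjusted p = 0.0387). *PLOD1* averaged 11.67 ± 0.25 in si*EPB41L4A* cells and 12.83 ± 0.08 in si*NS* cells, and *BMP1* 9.23 ± 0.56 in si*EPB41L4A* cells and 10.94 ± 0.80 in si*NS* cells (SD, n = 4 each). *PLOD1* kept its call in 8 of 8 fits without 1 array, *P3H4* in 6, *P3H1* and *P3H2* in 3, and *BMP1* and *PPIB* in 1.

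Among 34 other matrix genes 26 were tested, 3 were higher and 2 were lower. *MFAP5*, a microfibril glycoprotein, averaged 10.94 ± 0.84 in si*EPB41L4A* cells and 8.08 ± 0.46 in si*NS* cells (SD, n = 4 each; log2 change 2.86, limma, adjusted p = 0.00265). *LTBP1*, which holds latent TGF-beta in the matrix, rose by 2.80 (adjusted p = 0.00400) and its relative *LTBP3* fell by 2.58 (adjusted p = 0.0137). *EFEMP1*, a fibulin, was at 7.92 in si*EPB41L4A* cells and 5.78 in si*NS* cells, where it was above background on 1 array. Its log2 change was 2.14 (limma, adjusted p = 0.00985). With values under the background percentile set to it the change of the means was 1.57, a bound that leaves out the spread of the arrays. *TGFBI*, a secreted protein that binds collagen and integrins, fell by 1.47 (SE 0.23, limma, adjusted p = 0.00639) and lay high on the scale, at 16.99 in si*EPB41L4A* cells and 18.46 in si*NS* cells. The 5 genes kept their calls in 8 of 8 fits without 1 array.

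Matrix receptors were tested for 21 of 24 genes measured, and 2 were higher and 3 were lower, with a median of -0.17. *ITGA6*, the alpha chain of laminin-binding integrins, averaged 12.86 ± 1.29 in si*EPB41L4A* cells and 9.98 ± 0.74 in si*NS* cells (SD, n = 4 each; log2 change 2.89, limma, adjusted p = 0.0170, kept in 5 of 8 fits without 1 array). *ITGB3*, the beta chain of a receptor for vitronectin and fibronectin, averaged 7.82 ± 0.95 in si*EPB41L4A* cells and 11.11 ± 1.25 in si*NS* cells (log2 change -3.29, adjusted p = 0.0113, kept in 8). The heparan sulfate proteoglycans *SDC3* and *SDC4* moved oppositely, at 1.94 (adjusted p = 0.0271, kept in 4) and -1.38 (adjusted p = 0.0420, kept in 1). *ITGB4*, the partner of *ITGA6* in hemidesmosomes, was above background on 0 arrays, so its log2 change of -1.02 (adjusted p = 0.0407, kept in 0) is between levels of control probes.

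Of 15 TGF-beta pathway genes tested 1 was higher and 0 were lower. *TGFBR2*, a TGF-beta receptor, measured 13.96, 13.90, 13.69 and 14.77 in si*EPB41L4A* cells, against 11.78, 11.02, 11.60 and 10.72 in si*NS* cells, a log2 change of 2.80 (SE 0.30, limma, adjusted p = 0.000603). In this list the ligands, the SMADs and the matricellular genes *CCN1* and *CCN2* did not pass. The genes of these lists were chosen with earlier results of these data known, and their counts are descriptions beside the 5.51% of tested genes with 1 symbol. By list 24.0% of the collagen processing genes tested passed, 19.2% of the other matrix genes, 23.8% of the receptors and 6.67% of the TGF-beta pathway genes, the last of which is near the share over all genes.

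**Figure D4:**
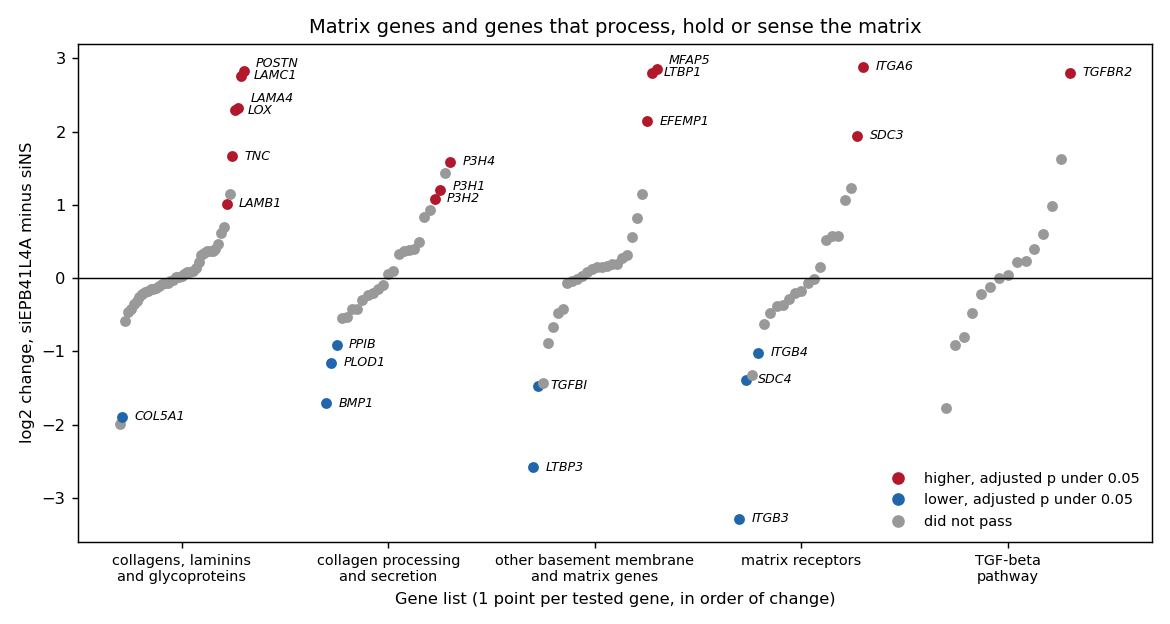
Log2 change (si*EPB41L4A* minus si*NS*, vertical axis) of each tested gene in 5 gene lists, in order of change, with genes that passed an adjusted p of 0.05 coloured and named. Each list holds values on both sides of 0, and the lists of collagen processing and other matrix genes have 3 rises each.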

How the data were processed

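Expression was measured on Clariom D Human arrays in 4 si*EPB41L4A* and 4 si*NS* samples. The authors applied robust multiarray averaging (RMA, Affymetrix Expression Console) to the signal intensities and deposited the log2 values, which were analysed without further normalization. For that software the version, and for the probe sets the genome build, is "not given in the sources used here".

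The table holds 138745 rows, of which 2995 are controls. A probe set was tested if above its array's median on at least 4 of the 8 arrays (66831). si*EPB41L4A* was compared with si*NS* by a moderated linear model without a block (lmFit, eBayes; limma 3.58.1, R 4.3.3), and p-values were adjusted by Benjamini-Hochberg across the 66831, with calls at 0.05. Precision is limited by the number of arrays. Of the 68 genes, 66 matched the RefSeq table of GRCh38.p14 by identifier, and 53 had a promoter entry.

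The genes and lists were chosen with earlier results of these data known. Named genes are all that passed, those whose arrays do not overlap, the highest means, *FN1*, *TNC*, *THBS1*, *SPARC*, *LOX* and collagen I and IV chains, and up to 3 called rises and falls per further list. Other genes are given as examples. Some genes of these lists are not reported here. Alternatives covered the filter, normalization, replicate block, prior, test, array weights, probe set choice, threshold and leaving out arrays. The additions to these alternatives made after the values were seen were the bound for *POSTN* and the other probe set of *COL1A1*, and the promoter motifs were also chosen then. The chain pairs and the bounds for *EFEMP1*, *EPCAM* and *EPB41L4A* were not among the planned tests either.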

Additional observations from a re-analysis of the deposited data

Results flagged for a closer look

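Over the 45 matrix genes tested and the other genes given here with values, 7 of 134 groups of 4 arrays held an array far from the others; chance flags about 1 in 20 groups. *THBS1* was at 15.46 in si*NS* replicate 4, where the other si*NS* arrays lay at 13.74 to 13.99. *FBN1* was at 9.74 in si*NS* replicate 2 (others 10.33 to 10.44). *ITGB3* was at 6.40 in si*EPB41L4A* replicate 4 (others 8.13 to 8.41). *P3H3* was at 6.86 in si*NS* replicate 4 (others 7.78 to 7.96). *COL23A1*, a transmembrane collagen, was at 6.58 in si*EPB41L4A* replicate 1 (others 5.66 to 5.82), the 1 array on which it was above background. *COL26A1* was at 4.30 in si*NS* replicate 3 (others 4.66 to 4.71) and *ITGB4* at 5.52 in si*NS* replicate 3 (others 4.75 to 4.88), both under the background percentile.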

How the results depend on the processing

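*LAMC1* and *POSTN* kept their calls under every alternative tried, and *LAMA4* and *COL5A1* under all but an unmoderated t-test (adjusted p = 0.0601 and 0.0641). *TNC*, *LOX* and *LAMB1* lost theirs by this test and at a threshold of 0.01, *LAMB1* also with no filter (adjusted p = 0.0544) and in every fit with arrays left out, *TNC* without both arrays of replicate 1, 2 or 4, and *LOX* without those of replicate 1 or 2. Probe sets called numbered 1747, with 3176 under the replicate block, 312 by an unmoderated t-test, 544 and 2918 at thresholds of 0.01 and 0.10, and 394 to 1628 with arrays left out. Of the 1747, 47.2% were higher, and after quantile normalization again 57.8% of 1800. Matrix genes called higher numbered 6, with 2 by an unmoderated t-test, 3 at a threshold of 0.01 and 3 to 5 with arrays left out. Those called lower numbered 1, with 0 by an unmoderated t-test and 2 under the filter at the 75th percentile, quantile normalization again, trended prior variance, array weights, averaging over probe sets of 1 gene and a threshold of 0.10, and 1 to 2 with arrays left out; the added gene was *THBS1*. The *FN1* change was -0.067, -0.0006 and -0.032 without si*EPB41L4A* replicate 1, si*NS* replicate 3 and si*NS* replicate 4, and that of *COL1A2* was 0.0075, 0.05 and 0.14 without si*EPB41L4A* replicate 1, si*NS* replicate 1 and both arrays of replicate 1; over all such fits they ranged from -0.067 to 0.10 and from -0.19 to 0.14. The cause was not tested.

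No source ties replicate numbers to shared experiments, and deviations of same-numbered arrays correlated at 0.07 to 0.39, so the arrays were not taken as pairs, though 4 of 4 si*EPB41L4A* arrays matched their own number best. Under the replicate block 7 matrix genes were higher, with *COL5A2* at adjusted p = 0.0426, and 2 lower, with *THBS1* at 0.00425. *LOX*, whose highest and lowest arrays had the same numbers in both groups, had an SE of 0.21 and an adjusted p of 0.000894 under this block (limma).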

Other observations

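Levels of several matrix genes followed the replicate number in both groups. Of the 21 genes above background on all 8 arrays, 14 had the same-numbered array highest in si*EPB41L4A* and si*NS* cells, 9 of them replicate 3, and 8 had the same-numbered array lowest, 6 of them replicate 4. In 4 genes, *LOX*, *COL6A1*, *COL6A2* and *COL12A1*, replicate 3 was highest and replicate 4 lowest in both groups. The same counts over all probe sets were not computed. Deviations of same-numbered arrays correlated at 0.07 to 0.39 over all tested probe sets, so agreement by number was not limited to matrix genes. The median SD over the 21 genes was 0.41 in si*EPB41L4A* cells and 0.41 in si*NS* cells.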
